A study of Mus musculus with 8 samples.

Results

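B cells whose heavy chain carries a long complementarity-determining region 3 (CDR3) were examined here: cells with exactly 1 heavy and 1 light contig whose heavy CDR3 has 20 or more residues, both anchor residues counted. They numbered 976 of 40603 paired cells in 8 libraries, 597 of 21896 in KO and 379 of 18707 in WT libraries. The remaining 39627 paired cells are called other cells.

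The study sequenced paired receptors of splenic B cells labelled as germinal centre cells, taken on day 10 after immunization, enriched with peanut agglutinin beads and sorted. The 4 KO libraries were labelled Dtx1-/- and the 4 WT libraries Dtx1+/+. Dtx1 encodes the ubiquitin ligase Deltex-1, known from the Notch pathway. The sources used here do not give the immunogen, the strain, age or number of mice, the cells in which Dtx1 was deleted or the sort gates, and receptor contigs hold no Dtx1 transcript with which to check the genotype.

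The heavy CDR3 is built by joining a V, a D and a J segment, with bases trimmed from their ends and others added between them by terminal transferase. It lies at the centre of the antigen-binding site, so its length shapes what a receptor can bind. Long heavy CDR3s are made in the bone marrow and are known to be thinned out as B cells mature. In germinal centres the enzyme AID then mutates V genes and switches IgM to other classes.

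Each library held 754954 to 1155339 UMIs (unique molecular identifiers, counts of captured molecules) and 4585 to 5712 paired cells. Heavy contigs were deeper in KO, with a median of 42 UMIs in KO long cells and 23 in WT long cells. In other cells the medians were 39 in KO and 23 in WT. Libraries of 1 genotype held the same clones: 20 to 35 long clones were shared by 2 libraries of a genotype (median 28), against 0 to 3 between genotypes (median 1). The libraries therefore behaved as portions of 1 KO pool and 1 WT pool, and every p-value below compares these 2 pools, not a number of mice. Of 51304 distinct barcodes 1671 were listed in more than 1 library, but no barcode was a long cell in more than 1.

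Receptor marks of a germinal centre origin were carried by a minority of long cells and of other cells. A mutated or switched receptor was found in 15.2% of KO and 39.3% of WT long cells, against 23.1% of KO and 34.7% of WT other cells. Unmutated IgM or IgD receptors made up 83.8% of KO and 60.2% of WT long cells, against 76.1% of KO and 64.2% of WT other cells. IgD, which marks naive cells, was the class of 2 KO (0.337%) and 0 WT long cells, where 0 allows a share of up to 0.792%. Among other cells it was the class of 25 KO (0.118%) and 122 WT cells (0.667%). IgM is also made by naive cells, and other cell types cannot be seen in receptor contigs. The B-1 cell genes IGHV11-2, IGHV12-3 and IGHV7-1 were absent from all 976 long cells, which allows a share of up to 0.307% when cells are counted. They held 1.54% of KO and 0.611% of WT other cells. Cells of 1 clone are not independent: IGHV12-3 had 363 cells in 26 clones, IGHV11-2 39 in 6 and IGHV7-1 38 in 31. Heavy UMIs in the top percentile of a library, a sign of plasma cells, occurred in 3 KO (0.503%) and 1 WT (0.264%) long cells. The shares of other cells were 1.03% in KO and 1.04% in WT, near what choosing the top percentile sets. Whether naive cells have a part in the results was not tested.

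The heavy CDR3s of the 5 largest long clones of each pool are printed first because they are the best filled clones and show which genes each pool used. A clone is a set of cells with the same IGHV, IGHJ, light V and light J genes and CDR3 length, joined at 0.85 nucleotide identity. Capitals mark the middle, the bases between the start shared with other clones of the V gene and the end shared with other clones of the J gene, so it holds D bases and added bases.
KO clone of 40 cells, IGHV8-8 with IGHJ3 and IGKV12-44: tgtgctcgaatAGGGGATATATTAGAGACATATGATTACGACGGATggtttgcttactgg
KO clone of 28 cells, IGHV8-8 with IGHJ2 and IGKV3-10: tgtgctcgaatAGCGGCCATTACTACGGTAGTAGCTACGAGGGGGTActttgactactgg
KO clone of 24 cells, IGHV8-8 with IGHJ4 and IGKV9-124: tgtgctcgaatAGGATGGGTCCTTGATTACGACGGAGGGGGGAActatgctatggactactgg
KO clone of 20 cells, IGHV8-8 with IGHJ4 and IGKV4-72: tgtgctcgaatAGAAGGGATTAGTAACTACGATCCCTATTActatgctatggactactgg
KO clone of 15 cells, IGHV8-8 with IGHJ2 and IGKV3-12: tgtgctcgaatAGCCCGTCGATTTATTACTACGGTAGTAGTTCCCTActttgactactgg
WT clone of 17 cells, IGHV1-62-2 with IGHJ3 and IGKV2-137: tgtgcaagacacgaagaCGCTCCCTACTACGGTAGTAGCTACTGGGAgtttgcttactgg
WT clone of 15 cells, IGHV2-5 with IGHJ4 and IGKV13-84: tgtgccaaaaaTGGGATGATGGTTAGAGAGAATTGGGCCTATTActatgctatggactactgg
WT clone of 11 cells, IGHV1-18 with IGHJ4 and IGKV1-135: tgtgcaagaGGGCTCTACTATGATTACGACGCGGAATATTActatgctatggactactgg
WT clone of 8 cells, IGHV1-39 with IGHJ4 and IGKV12-41: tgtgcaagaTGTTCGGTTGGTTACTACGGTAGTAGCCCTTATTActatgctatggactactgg
WT clone of 8 cells, IGHV1-53 with IGHJ4 and IGKV6-17: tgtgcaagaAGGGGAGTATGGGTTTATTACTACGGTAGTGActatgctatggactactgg

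All 5 KO sequences begin with the IGHV8-8 start, which is 11 bases long, against 9 for IGHV1-26, IGHV1-18 and most other IGHV1 genes. The IGHV1-62-2 start of 17 bases, taken like the others from the clones of these data, may reach past the V gene. Stretches of IGHD1-1 recur in both pools. The run common to IGHD1-1 clones is printed for comparison with the capitals above; RefSeq places the gene at chr12:113482170-113482192 on GRCm38.p6, the build also called mm10.
IGHD1-1 run: ttattactacggtagtagctac

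Most long cells were only just past the threshold. There were 641 cells with 20 residues, 221 with 21 and 114 with 22 or more, the longest having 25, while 1394 cells lay just outside with 19 residues. Values just inside and just outside the threshold were near each other: IGHV8-8 was used by 28.2% of cells with 20 residues and 25.5% of those with 19, and IGHJ4 by 42.3% and 45.6%. Past 21 residues IGHJ4 reached 73.7%.

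**Figure D1:**
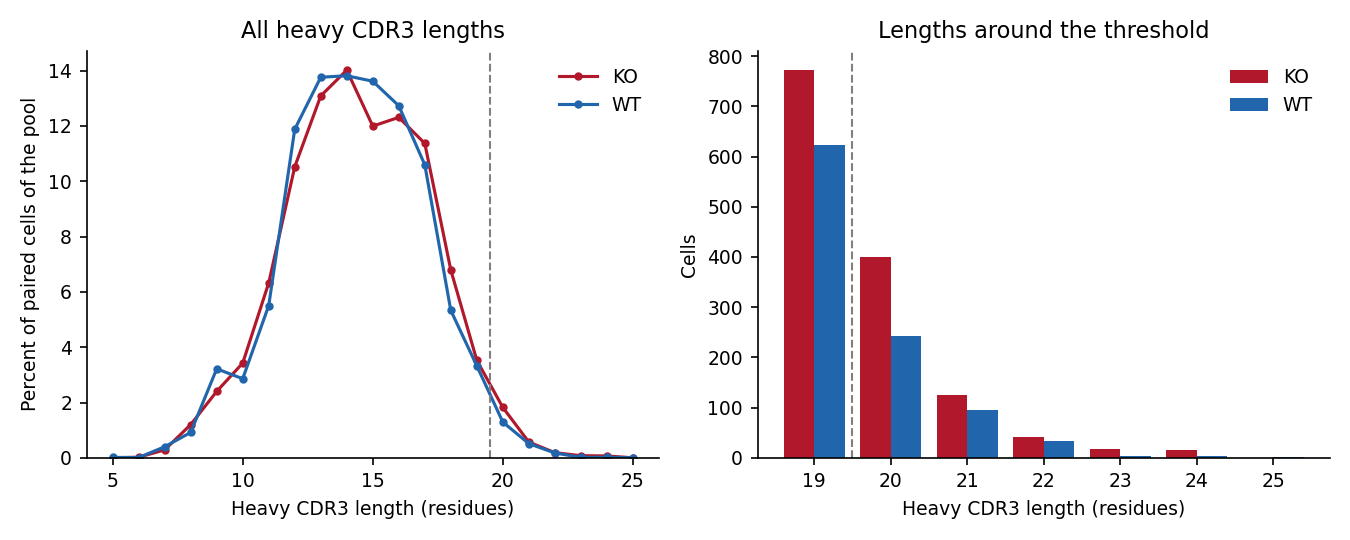
Heavy CDR3 length in paired cells of the KO pool (red) and the WT pool (blue). The left panel gives the percent of each pool at every length in residues, and the right panel the cells at 19 residues and above; the dashed line is the threshold, with 597 KO and 379 WT cells to its right.

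The extra length lay mainly in the middle. The long CDR3s averaged 35.1 middle bases, against 19.6 in other cells, while the J-like end averaged 16.7 bases in long and 14.2 in other cells. The V-like start averaged 9.81 bases in long and 8.94 in other cells. Since D and J bases are part of the length that chose the cells, the next values are descriptions with no test.

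IGHJ4, which contributes the longest J end of the 4 IGHJ genes together with IGHJ1, was used by 51.02% of long and 25.6% of other cells. IGHJ1 was used by 20.6% of long and 17.2% of other cells, IGHJ3 by 14.9% and 26.5%, and IGHJ2, with a short end, by 13.5% and 30.6%. A D gene was listed more often for long than for other cells: 44.1% of long and 78.0% of other cells had none listed. IGHD1-1, the longest D gene in common use, was listed for 40.2% of long and 7.55% of other cells. IGHD2-4 was listed for 6.35% of long and 2.97% of other cells, IGHD2-6 for 3.48% and 2.09%, and IGHD2-7 for 3.18% and 0.974%. The short D gene IGHD4-1 was listed for 0 long cells and for 885 other cells.

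IGHD1-1 bases were searched for directly, as a match of at least 12 bases to the run above on the sense strand. A match was found in 60.6% of long and 22.6% of other cells, including 208 of the 430 long cells with no D listed. The run was read mostly in the frame that gives YYYGSSY. The frame that gives ITTVVA was used by 28.6% of long cells with a match, against 14.9% of other cells with a match. Counted by clones, this frame had 21.5% of long and 15.9% of other matches. Among clones of IGHV8-8 it was read by 13 of 52 long clones with a match, against 14 of 317 other clones. These frames were searched for after the sequences had been seen.

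Tyrosine, the residue that dominates D reading frames, made up 23.3% of the residues between the anchors in long cells and 21.7% in other cells. Alanine made up 11.2% in long and 13.1% in other cells, and arginine 8.04% and 9.90%.

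The share of long cells was above that of every WT library in each KO library when each cell counted, but not when each clone counted once. The share was 2.71, 2.70, 2.73 and 2.78% in the KO libraries and 2.15, 2.28, 1.75 and 1.92% in the WT libraries. The KO libraries lay close together and all above the WT libraries. The mean was 2.73 ± 0.035% in KO and 2.02 ± 0.233% in WT (SD, n = 4 each), a difference of 0.704 percentage points. By an exact two-sided permutation test over 70 assignments p was 0.0286, the smallest that 4 libraries against 4 allow, and 0.0786 after Benjamini-Hochberg adjustment over 22 values. For the pools the 95% Wilson intervals, which cover counting error only, were 2.52 to 2.95% in KO and 1.83 to 2.24% in WT.

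With each clone counted once per library the share of long clones was 2.77, 2.61, 2.44 and 2.80% in KO and 2.51, 2.78, 2.46 and 2.63% in WT libraries, a difference of 0.0608 percentage points (exact permutation p = 0.686). Over the pools 266 of 10274 KO clones and 191 of 7546 WT clones were long, which is 2.59% and 2.53%. Leaving out IGHV8-8 cells, a choice made after seeing the data, gave 1.92 ± 0.135% in KO and 1.86 ± 0.208% in WT (SD, n = 4 each; difference 0.0659, exact permutation p = 0.657). Heavy-chain depth also differed between the pools, being higher in KO. Among cells with 20 to 40 heavy UMIs the share difference was 0.219 percentage points (exact permutation p = 0.514). The part of depth was not tested further.

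**Figure D2:**
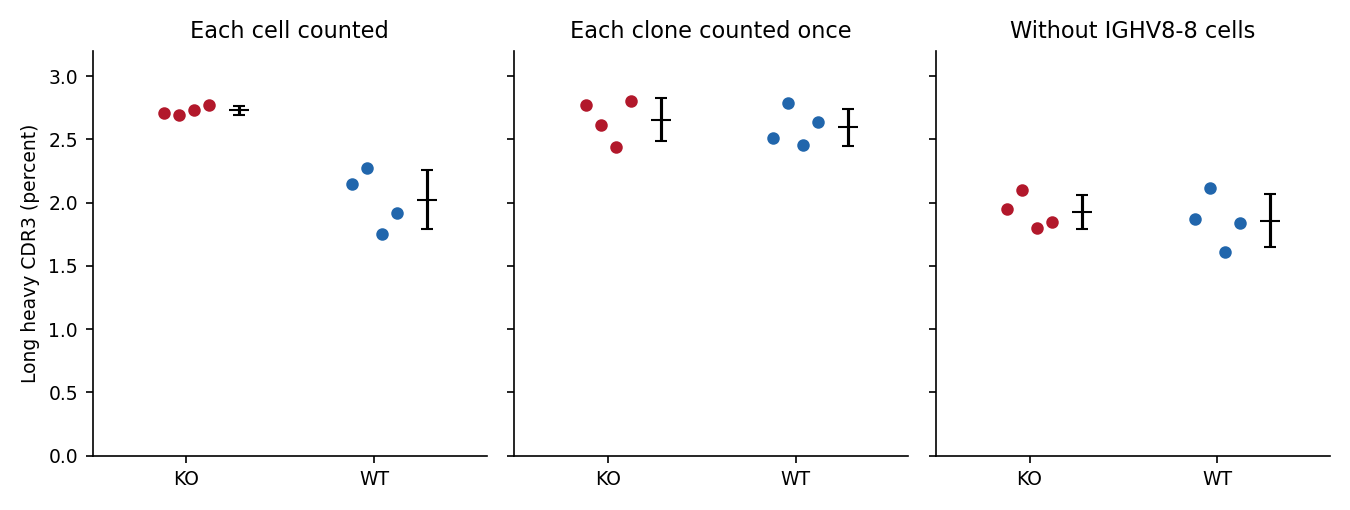
Percent with a long heavy CDR3 in each KO library (red) and WT library (blue), with the mean and SD in black. KO libraries lie above WT libraries when each cell counts (2.73 and 2.02% on average); the groups overlap when each clone counts once and when IGHV8-8 cells are left out.

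Of 22 values compared between KO and WT long cells, 8 reached the smallest possible p of 0.0286 and none passed after adjustment, where the lowest adjusted p was 0.0786. The other 14 had an exact permutation p between 0.0857 and 1. A fit across V genes, which has no such floor, is given for V use.

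IGHV8-8, a gene of the small IGHV8 family at chr12:115294066-115294362 (GRCm38.p6), was the gene most used by long cells. It was used by 249 of 976 long cells (25.5%) and 4.98% of other cells. By edgeR's quasi-likelihood test on cells per gene its log2 fold change, long over other, was 2.11 ± 0.28 (SE), with a Benjamini-Hochberg adjusted p of 4.15e-11. The IGHV8-8 V start is longer than most and is part of the length that chose the cells, so this test is not independent of the choice. With length counted as 51 or more bases beyond the V start the log2 fold change was 1.01 and still called, and with each clone counted once it was 1.74.

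Of 77 IGHV genes tested, 25 (32.5%) differed between long and other cells at an adjusted p under 0.05 (41.6% at an unadjusted p under 0.05): 5 (6.49%) were higher and 20 (26%) lower in long cells. The V start differs between genes and counts toward the length, so these calls are not independent of the choice of cells. With length counted as 51 or more bases beyond the V start, an alternative chosen after seeing the data, 5 genes were higher and 11 lower. The split also moved with the scaling, to 3 higher and 36 lower genes with TMM and 3 and 31 with DESeq2. The higher genes beside IGHV8-8 were its relative IGHV8-12, with 61 long cells (6.25% of long and 2.90% of other cells, log2 fold change 0.99 ± 0.37), and the rarer IGHV1-20, IGHV5-12 and IGHV9-1 with 13, 10 and 8 long cells. IGHV8-12 lost its call without KO replicate 1, 2 or 4 or WT replicate 1, with log2 fold changes of 0.92, 0.87, 0.99 and 0.85. Its start is as long as that of IGHV8-8, and at 51 bases beyond the start its log2 fold change was 0.47 and not called (edgeR adjusted p = 0.350). It was not called with TMM (0.34), DESeq2 (0.43) or at 22 residues (1.04) either. Without WT replicate 1 the count of higher genes was 3. IGHV1-20 was called with a log2 fold change of 2.61 ± 0.55, but all its long cells were KO and they came from 3 clones. Of the IGHV5-12 long cells 6 were 1 KO clone, and of the IGHV9-1 long cells 6 were 1 WT clone. IGHV9-1 kept its call in 6 of 16 alternatives.

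Among genes lower in long cells, IGHV1-55 held 1.84% of long and 4.98% of other cells (log2 fold change -1.42 ± 0.44, adjusted p = 0.00760). IGHV1-9 held 3.07% of long and 6.19% of other cells (log2 fold change -1.0 ± 0.38, adjusted p = 0.0304). The IGHV1-9 call was lost without KO replicate 1 or 3 or WT replicate 1 or 2, with log2 fold changes of -0.94, -0.79, -1.01 and -0.90, and both calls were lost with each clone counted once, at -0.95 for IGHV1-55 and -0.71 for IGHV1-9. At 51 bases beyond the V start IGHV1-9 was at -0.42 and not called. IGHV1-4 and IGHV1-52 were used by 0 long cells where their share of other cells would give 14.2 and 11.8. Against a floor of 3 cells over all long cells, IGHV1-4 was at least 4.75-fold and IGHV1-52 at least 3.94-fold lower. IGHV12-3, a B-1 gene, was at least 2.98-fold and IGHV14-4 at least 2.31-fold lower. These bounds count cells, and cells of 1 clone are not independent: the 363 IGHV12-3 cells came from 26 clones. IGHV2-6 and IGHV6-6 also had 0 long cells. IGHV2-2 had 3 long cells where 21.99 would match other cells, a ratio of 0.136 (95% counting interval 0.0281 to 0.399). IGHV1-42 had 3 long cells and IGHV1-66, IGHV1-78 and IGHV1-74 had 1 each, all called lower. Their ratios were 0.171 (0.0352 to 0.499), 0.0787 (0.00199 to 0.438), 0.0812 (0.00206 to 0.452) and 0.104 (0.00264 to 0.582). Of the genes with 0 to 3 long cells, IGHV1-42, IGHV1-66, IGHV1-74 and IGHV14-4 were not called at 51 bases beyond the V start, where their log2 fold changes were -1.49, -1.73, -1.92 and -2.42. At 22 residues only 2 genes were called lower.

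Several much-used genes did not pass this test. IGHV1-81 held 7.07% of long and 6.49% of other cells, IGHV9-3 4.82% and 4.79%, and IGHV1-26 4.51% and 3.33%. IGHV1-62-2 held 3.79% of long and 2.78% of other cells, IGHV1-18 3.69% and 2.01%, IGHV1-64 2.97% and 2.91%, and IGHV1-53 2.15% and 3.48%. The IGHV1-62-2 result turned with the way length was counted: its log2 fold change, 0.46 here, was -2.91 at 51 bases beyond its V start (edgeR adjusted p = 0.00115) and -1.05 at 18 residues (adjusted p = 3.18e-05), but 1.03 and called higher with each clone counted once (adjusted p = 0.0433). IGHV1-26 was called higher at 18 residues (log2 fold change 0.45, edgeR adjusted p = 0.0111) and at 22 (2.30, adjusted p = 1.55e-05), and IGHV1-64 at 18 (0.46) and 22 (1.95). IGHV1-18 was called higher at 51 bases beyond the V start (1.23), at 18 residues (1.49) and with each clone counted once (0.93). IGHV1-53 was called lower with TMM (-1.42) and DESeq2 (-1.60). IGHV1-18 was also called without KO replicate 1 or 3 (log2 fold change 1.11 in both) and IGHV1-53 without WT replicate 4 (-1.46). The sign of the log2 fold change turned for IGHV1-81 without WT replicate 3, for IGHV9-3 without KO replicate 1, 2 or 3 or WT replicate 4, for IGHV1-26 without KO replicate 2 or 4, and for IGHV1-64 without KO replicate 3 or 4 or WT replicate 1. TMM scaling moved the median log2 fold change over the tested IGHV genes to -1.28 from -0.62, and IGHV1-81, IGHV1-26 and IGHV1-62-2 changed sign under it, whereas IGHV8-8 kept a log2 fold change of 1.45.

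KO and WT long cells differed in V use. In KO libraries IGHV8-8 was used by 49, 42, 59 and 53 long cells, against 17, 12, 10 and 7 in WT libraries, or 34.0% of KO and 12.1% of WT long cells. As a share of a library's long cells it ran from 27.3 to 38.6% in KO and from 7.95 to 16.3% in WT, without overlap. The log2 fold change, KO over WT, was 1.48 ± 0.21 (edgeR adjusted p = 3.75e-04). With each clone counted once per library it was 0.90 and still called, but a clone found in several libraries counts in each of them. Over the pools 49 of 266 KO and 24 of 191 WT long clones used IGHV8-8, which was not tested. At 22 or more residues the log2 fold change was -0.44 (edgeR adjusted p = 0.459). IGHV8-8 was also more used by other cells of KO (5.80%) than of WT (4.02%). Counted by clones, 49 of 628 KO clones and 24 of 318 WT clones of IGHV8-8 were long, which is 7.80% and 7.55%; counted by cells, 14.1% of KO and 5.87% of WT cells were.

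**Figure D3:**
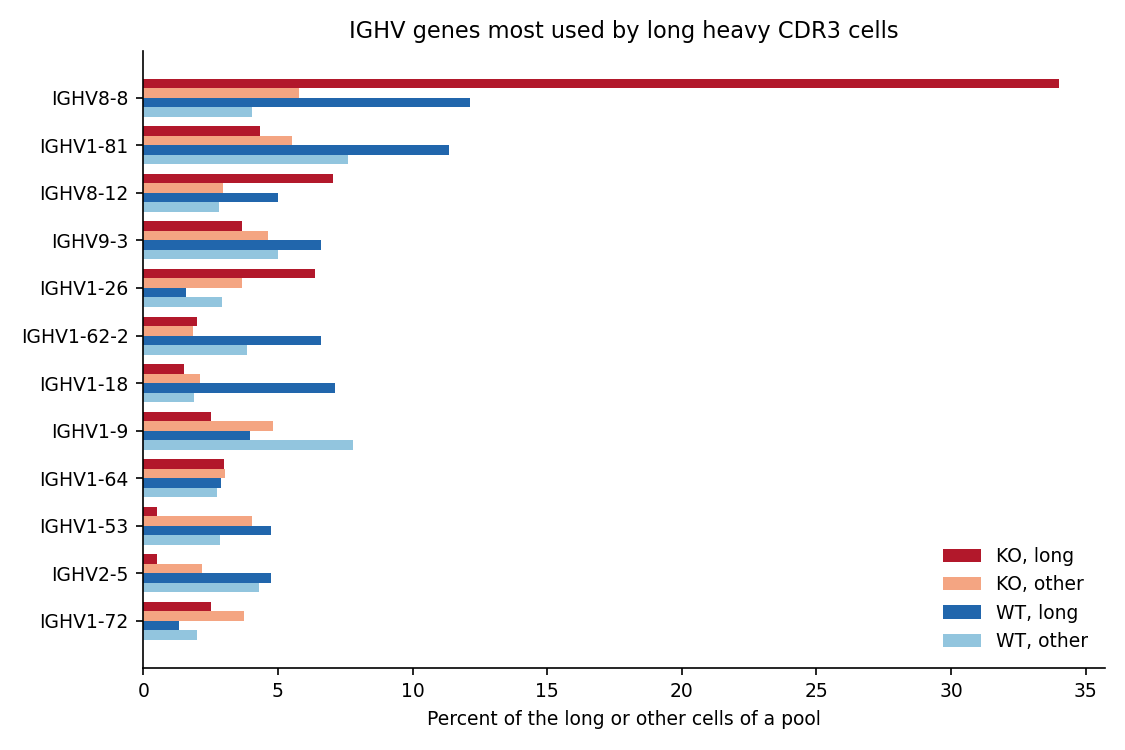
Percent of long cells (dark bars) and other cells (light bars) of the KO pool (red) and WT pool (blue) that used each of the 12 IGHV genes most used by long cells. IGHV8-8 stands apart, with 34.0% of KO and 12.1% of WT long cells.

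In all, 10 of 17 IGHV genes tested (58.8%, or 64.7% at an unadjusted p under 0.05) differed between KO and WT long cells, 4 (23.5%) higher and 6 (35.3%) lower in KO. Tested genes needed at least 15 long cells in total, which 1 pool alone could supply, so these counts are not independent of that filter. DESeq2 called 4 higher and 3 lower and did not call IGHV1-55 (log2 fold change -2.14), IGHV1-62-2 (-1.36), IGHV1-81 (-1.03) or IGHV1-80 (2.60), and TMM, which moved the median log2 fold change to -0.11 from -0.43, called 4 and 5 and not IGHV1-81 (-1.03). At 18 residues IGHV1-71 (0.31), IGHV1-26 (-0.021), IGHV1-18 (0.080), IGHV1-53 (-0.44) and IGHV1-55 (-0.58) were not called, and at 22 residues 1 gene was called. Cells of 1 clone are not independent, and with each clone counted once per library 2 genes were called in each direction. The count of higher genes was 2 without KO replicate 1 or 2 or WT replicate 2, and that of lower genes 2 without WT replicate 2. IGHV1-26 had 6, 15, 6 and 11 long cells in KO libraries, against 2, 2, 0 and 2 in WT libraries (log2 fold change 1.95 ± 0.63). It lost its call without WT replicate 2, with a log2 fold change of 2.06 and an adjusted p of 0.0506. IGHV1-80, with 15 KO and 2 WT long cells, was called (log2 fold change 2.06 ± 0.75), but not without KO replicate 2 or WT replicate 1, 2 or 3, where the log2 fold change was 2.26, 1.67, 2.49 and 1.76. Other cells of KO also used IGHV1-26 (3.67%, against 2.93% of WT) and IGHV1-80 (2.09% and 0.933%) more.

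IGHV1-71 had 4, 4, 5 and 4 long cells in KO libraries and 0 in each WT library. This was at least 3.597-fold higher against a floor of 3 cells over the WT pool. Only genes with at least 15 long cells in total were tested, so IGHV1-71 entered through its KO cells alone. Its 17 KO cells came from 6 clones, 1 of them of 11 cells. IGHV1-62-2, whose CDR3 start resembles that of IGHV1-71, had 12 KO and 25 WT long cells (log2 fold change -1.65 ± 0.49). Counting these genes as 1, after their values were seen, gave 29 KO cells (4.86%) and 25 WT cells (6.60%), of which 13 KO and 17 WT cells carried IGKV2-137. Whether the naming in the deposited tables split like cells between these genes could not be checked here. IGHV1-62-2 lost its call without WT replicate 2 (log2 fold change -1.40) and with each clone counted once (-0.16). Other cells also used IGHV1-62-2 less in KO (1.86%) than in WT (3.85%). They used IGHV1-71 less in KO too (1.96% and 2.83%), unlike long cells.

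The genes lower in KO were led by IGHV2-5 (log2 fold change -2.98 ± 0.72). It had 0, 1, 0 and 2 long cells in KO libraries and 6, 7, 2 and 3 in WT libraries. Of its 18 WT long cells 15 were 1 clone. Counted by clones, 3 KO and 2 WT clones of IGHV2-5 were long, or 1.49% and 0.939% of the gene's clones. IGHV1-18 had 1, 3, 1 and 4 in KO and 6, 8, 8 and 5 in WT libraries (log2 fold change -2.17 ± 0.52, and -1.24 and not called with each clone counted once). IGHV1-53 had 3 KO and 18 WT long cells, 10 of the WT cells in WT replicate 4, and IGHV1-55 had 4 KO and 14 WT long cells. Of the IGHV1-53 WT cells 8 were 1 clone with IGKV6-17 and 7 were 1 clone with IGKV4-57-1. IGHV1-55 lost its call without KO replicate 3 (log2 fold change -1.92). IGHV1-81 had 9, 3, 10 and 4 in KO and 7, 14, 12 and 10 in WT libraries (log2 fold change -1.37 ± 0.45), and its call was lost without WT replicate 2 or 3, with log2 fold changes of -1.29 and -1.24.

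Light V genes had no part in the choice of cells. Of 78 light V genes tested, 16 (20.5%) differed between long and other cells (37.2% at an unadjusted p under 0.05), 7 (8.97%) higher and 9 (11.5%) lower in long cells. With TMM 4 were higher and 24 lower, the median log2 fold change over these genes moving to -0.99 from -0.50, and with DESeq2 4 and 19. IGKV4-72 paired with 64 long cells (6.56% of long and 1.18% of other cells, log2 fold change 2.48 ± 0.30) and IGKV6-20 with 29 (2.97% and 0.485%, log2 fold change 2.62 ± 0.40). IGKV4-72 was shared by both pools, with 6.87% of KO and 6.07% of WT long cells from 20 clones.

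IGKV8-30 (5.74% of long and 2.52% of other cells) and IGKV3-12 (5.84% and 1.83%) were also higher, with log2 fold changes of 1.23 ± 0.30 and 1.56 ± 0.31. IGKV12-44 (6.66% and 2.42%) and IGKV3-10 (2.97% and 0.527%) were called, but not with each clone counted once, where the log2 fold change was 0.58 and 0.25 and the edgeR adjusted p 0.246 and 0.836. The log2 fold change of IGKV12-44 was 1.24, and the gene was not called with TMM (0.81), DESeq2 (0.70), at 18 residues (-0.22), at 22 (0.42) or at 51 bases beyond the V start (0.27). IGKV3-10 was not called with TMM (1.66), DESeq2 (0.98), at 22 residues (0.59) or at 51 bases (-0.61), against 2.13 here. IGKV6-20 was not called at 18 residues (0.90) or 22 (0.66). IGKV3-10 also lost its call without KO replicate 2 or 3, with log2 fold changes of 1.47 and 1.81. IGKV1-110, a common partner of other cells, fell to 0.922% of long cells against 4.54% of other cells (log2 fold change -2.23 ± 0.41). IGKV5-48 and IGKV3-4 were called lower with 5 and 2 long cells, IGKV3-4 not without KO replicate 1 or WT replicate 2, 3 or 4 (log2 fold change -2.34, -2.08, -2.20 and -2.16), and IGKV12-38 was at least 2.90-fold lower with 0. The count of lower genes was 5, 3 and 4 without KO replicate 4, WT replicate 2 and WT replicate 3. IGKV6-15 (4.10% and 3.39%) and IGKV1-117 (4.00% and 5.42%) did not pass.

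Between KO and WT long cells 7 of 22 light V genes (31.8%, or 50% at an unadjusted p under 0.05) differed, 4 (18.2%) higher and 3 (13.6%) lower in KO. TMM moved the median log2 fold change over these genes to 0.33 from -0.088 and called 5 higher and 3 lower. DESeq2 did not call IGKV8-27 or IGKV13-84 (log2 fold change -2.19). At 18 residues IGKV3-10 (0.85), IGKV3-12 (0.31), IGKV8-27 (-0.51) and IGKV13-84 (-0.17) were not called. IGKV12-44 had 13, 14, 17 and 13 cells in KO libraries, against 3, 3, 0 and 2 in WT libraries (log2 fold change 2.12 ± 0.41, and 0.43 and not called with each clone counted once). IGKV3-10 had 4, 15, 7 and 3 in KO libraries and 0 in the WT pool, at least 6.14-fold higher against a floor of 3 cells. Of its 29 cells 28 were 1 KO clone, so this bound on cells rests mainly on that clone. IGKV8-27 had 16 KO cells from 9 clones and 0 WT cells, at least 3.39-fold higher. Both IGKV3-10 and IGKV8-27 reached the minimum of 15 long cells for this test through KO cells alone. IGKV3-12, with 44 KO and 13 WT cells (log2 fold change 1.08 ± 0.43), was not called without KO replicate 3 or 4 or WT replicate 1, 2 or 4, where the log2 fold change was 0.86, 0.96, 0.999, 0.85 and 0.94. Without KO replicate 3 or 4 the count of higher genes was 2, and without KO replicate 1 that of lower genes was 5. Other cells of KO also used IGKV12-44 (2.91%, against 1.84% of WT) and IGKV8-27 (2.17% and 1.58%) more. They used IGKV3-10 (0.441% and 0.627%) and IGKV3-12 (1.80% and 1.86%) less.

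IGKV1-135 had 0, 0, 2 and 1 cells in KO libraries, against 6, 9, 7 and 9 in WT libraries (log2 fold change -3.78 ± 0.75), and all 4 WT libraries lay above all KO libraries. Its 31 WT cells came from 11 clones. IGKV12-41 had 2 KO and 17 WT cells (log2 fold change -3.40 ± 0.77). Of these WT cells 8 were 1 clone with IGHV1-39 and 6 were 1 clone with IGHV8-12. IGKV13-84 had 4 KO and 16 WT cells (log2 fold change -2.47 ± 0.73), and 15 of these WT cells were 1 clone with IGHV2-5. The IGKV13-84 call was lost without KO replicate 3 (log2 fold change -2.09, edgeR adjusted p = 0.0503). In other cells IGKV1-135 was also lower in KO (2.59%) than in WT (3.81%). IGKV12-41 (0.986% and 0.458%) and IGKV13-84 (1.85% and 1.72%) were not lower in KO there.

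Certain heavy and light genes recurred as pairs. IGHV8-8 with IGKV4-72 was found in 48 long cells of 11 clones, 35 KO and 13 WT. IGHV1-9 with IGKV1-117 was found in 11 KO and 11 WT cells of 3 clones, IGHV1-81 with IGKV1-135 in 1 KO and 14 WT cells of 6 clones, and IGHV1-18 with IGKV1-135 in 1 KO and 14 WT cells of 3 clones. The 40 cells of IGHV8-8 with IGKV12-44 were 1 KO clone. Lambda light chains were found in 2.52 ± 1.84% of KO and in 3.85 ± 1.12% of WT long cells (SD, n = 4 each; exact permutation p = 0.229).

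The long cells formed 452 clones, 266 seen in KO and 191 in WT. Most were seen once: 183 KO and 133 WT clones had 1 cell, while 9 KO and 3 WT clones had 10 or more. The 5 largest clones held 127 KO cells (21.3%) and 59 WT cells (15.6%). All 5 of the KO clones, printed above, used IGHV8-8, were IgM, had no IGHV mutation and had 1 CDR3 sequence each. The largest, with IGKV12-44, had 11, 8, 12 and 9 cells in the 4 KO libraries, and the second, with IGKV3-10, had 4, 15, 6 and 3.

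The WT clones used 5 different IGHV genes. The largest, IGHV1-62-2 with IGKV2-137, had 3, 6, 4 and 4 cells in the WT libraries, was IgM and had no IGHV mutation, as did the clones of IGHV2-5 and IGHV1-39. The IGHV1-18 clone differed: its 11 IgM cells carried 9 different CDR3 sequences and a mean IGHV mutation of 0.415%. The IGHV1-53 clone with IGKV6-17 had 4 CDR3 sequences in 8 IgM cells and 0.833% mutation.

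**Figure D4:**
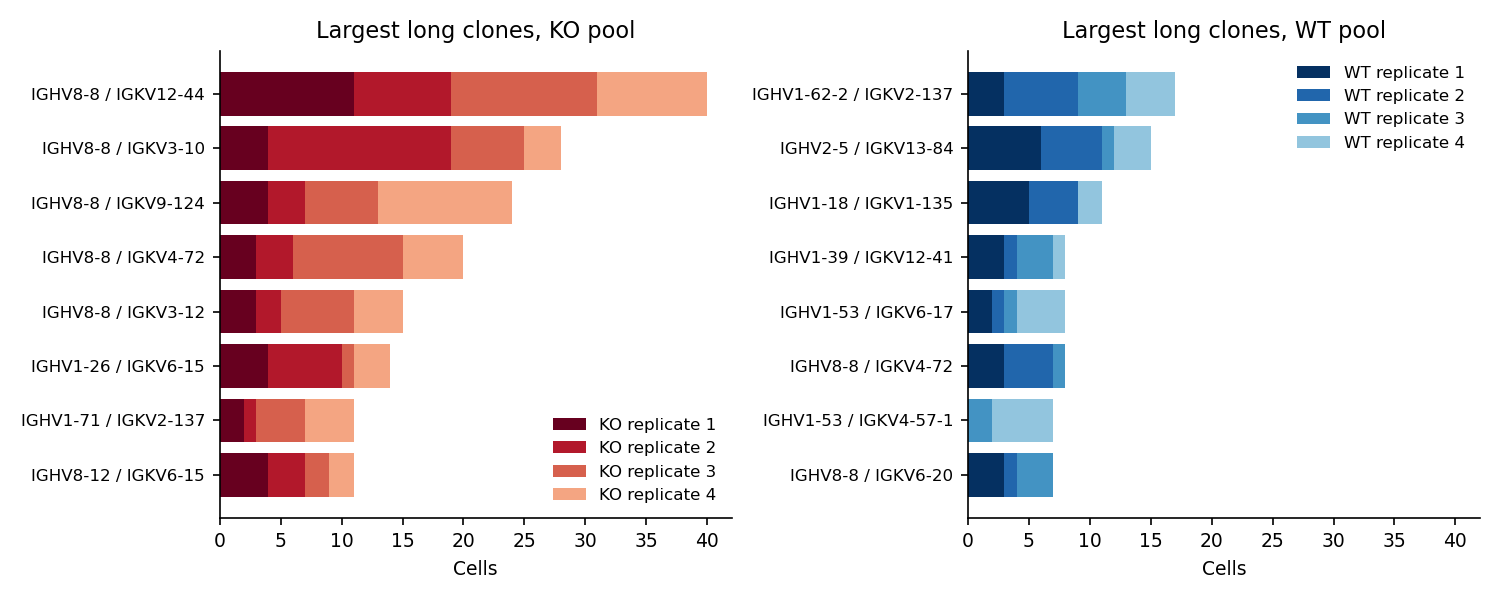
Cells per clone for the 8 largest long clones of the KO pool (left) and the WT pool (right), named by IGHV and light V gene and split by library. The 5 largest KO clones all use IGHV8-8, and the largest clone of each pool (40 KO and 17 WT cells) was found in all 4 libraries of its genotype.

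Expansion was measured at equal numbers. With each library thinned to 81 long cells, 39.6 ± 5.0% of KO and 37.4 ± 5.3% of WT long cells belonged to clones of 2 or more (SD, n = 4 each; exact permutation p = 0.543). With each library thinned to 4585 paired cells, 42.9, 49.4, 53.1 and 44.1% of long cells were in such clones in KO libraries, against 43.1, 45.7, 44.8 and 45.6% of other cells. In WT libraries 47.9, 40.2, 37.0 and 34.1% of long cells were, against 55.4, 51.7, 58.3 and 58.2% of other cells. Long cells were less often in expanded clones than other cells in every WT library, and in 2 of 4 KO libraries. The difference, long minus other, was 2.57 percentage points in KO and -16.1 in WT, a change with genotype of 18.7 (exact permutation p = 0.0286, adjusted p = 0.0714). Without IGHV8-8 cells the change was 6.70 (exact permutation p = 0.229). Without KO replicate 1, 2, 3 or 4 it was 19.6, 18.3, 16.8 and 20.01, each with an exact permutation p of 0.0571. Over all 8 libraries the difference was -6.77 percentage points (exact sign-flip permutation p = 0.164, where 0.00781 is the smallest possible). It was -12.8 without IGHV8-8 cells and -13.4 with 51 or more bases beyond the V start, both at that smallest p of the exact permutation test.

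Few long clones were common to the pools. Since the pools differ in genotype, such a clone is a group of like receptors under the clone rule, not the offspring of 1 cell. Of 452 long clones 5 (1.11%) had cells in both, against 2.72% of other clones (not tested), and no heavy CDR3 nucleotide sequence of a long cell occurred in both. The best filled of the 5 is printed as the most common KO and WT sequence, with a related WT clone that differs in its light J gene; all are IGHV1-9 with IGHJ3 and IGKV1-117.
IGHV1-9 clone in KO, 6 cells: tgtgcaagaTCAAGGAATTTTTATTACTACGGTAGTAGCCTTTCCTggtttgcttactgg
IGHV1-9 clone in WT, 5 cells: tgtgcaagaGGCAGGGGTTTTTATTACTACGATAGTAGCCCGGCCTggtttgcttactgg
IGHV1-9 related WT clone, 6 cells: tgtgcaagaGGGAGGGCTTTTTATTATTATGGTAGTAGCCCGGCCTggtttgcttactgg
The 6 KO cells were unswitched with no IGHV mutation. The 5 WT cells were all switched, 3 to IgG1 and 2 to IgG3, with 1.82% mutation, and the 6 cells of the related WT clone were all switched, 5 of them to IgG2b, with 1.35% mutation. The nearest KO and WT sequences of the shared clone differed at 8 bases.

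The other 4 shared clones were smaller. IGHV8-8 with IGKV6-20 had 1 KO and 7 WT cells, all without IGHV mutation, and IGHV8-8 with IGKV4-72 and IGKJ5 had 2 KO and 1 WT cells. IGHV8-8 with IGKV3-12 and IGKJ1 had 1 KO and 2 WT cells, and IGHV1-81 with IGKV1-135 and IGKJ1 had 1 KO and 3 WT cells. The nearest KO and WT sequences within these 4 clones differed at 4 to 9 bases.

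IGHV mutation, the percent of V bases off the inferred germline, was lower in long cells of every KO library than of any WT library, a difference that did not pass after adjustment. It was 0.142, 0.147, 0.129 and 0.127% in KO libraries and 0.250, 0.481, 0.543 and 0.554% in WT libraries. WT replicate 1 was the lowest of its group, and all WT libraries lay above all KO libraries. The mean was 0.136 ± 0.0098% in KO and 0.457 ± 0.142% in WT (SD, n = 4 each; exact permutation p = 0.0286, adjusted p = 0.0786). IGHV genes without any mutation were found in 85.6 ± 1.6% of KO and 60.7 ± 9.3% of WT long cells, with the same p-values. With KO replicate 1, 2, 3 or 4 left out the mutation difference was -0.323, -0.324, -0.319 and -0.318 percentage points and that in unmutated cells 24.6, 24.9, 24.5 and 25.7, each with an exact permutation p of 0.0571. At 22 or more residues the mutation difference was -0.0167 (exact permutation p = 0.857).

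Other cells also differed, with 0.202 to 0.242% mutation in KO and 0.415 to 0.448% in WT libraries. Long cells were less mutated than other cells in all 4 KO libraries, but in WT replicate 1 only among WT libraries. The mean difference, long minus other, was -0.0890 percentage points in KO and 0.0256 in WT. This change with genotype had an exact permutation p of 0.143, and 0.0286 without WT replicate 1, where the change was -0.184. Over all libraries long cells averaged 0.297% and other cells 0.328% (exact sign-flip permutation p = 0.438).

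IGHV mutation in IGHV8-8 long cells was 0.0496% in KO and 0.219% in WT, while long cells of other IGHV genes had 0.182% in KO and 0.479% in WT (not tested). By library the IGHV8-8 value was 0.106, 0, 0.0294 and 0.0590% in KO and 0.0204, 0.0289, 0.625 and 0.446% in WT, so the groups overlapped. Without KO replicate 1 the KO value was 0.0316%, and the WT value was 0.335% without WT replicate 1 and 0.106% without WT replicate 3. Low mutation was also seen in other cells of IGHV8-8, with 0.146% in KO and 0.168% in WT. Over all other cells the values were 0.226% in KO and 0.432% in WT (not tested). Genes with 6 or more mutations were seen in 1.18% of KO and 5.04% of WT long cells. The light V gene had 0.0617 ± 0.020% mutation in KO and 0.219 ± 0.054% in WT long cells (SD, n = 4 each), and the mean light CDR3 was 10.93 ± 0.019 residues in KO and 11.02 ± 0.029 in WT. Both had an exact permutation p of 0.0286 and an adjusted p of 0.0786. In other cells the libraries also split by genotype for both. Their light V mutation was 0.106 to 0.113% in KO and 0.190 to 0.217% in WT. Their light CDR3 averaged 10.963 to 10.972 residues in KO and 11.021 to 11.024 in WT.

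**Figure D5:**
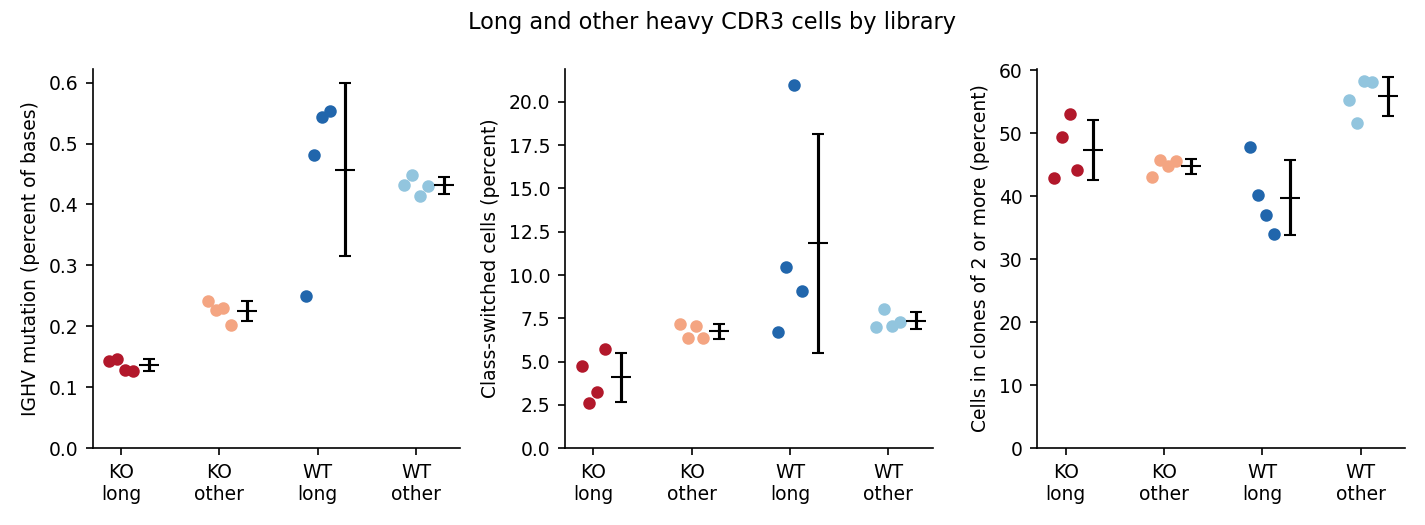
IGHV mutation, class-switched cells and cells in clones of 2 or more, for long cells (dark) and other cells (light) in each KO library (red) and WT library (blue), with mean and SD in black. Long cells lie below other cells in mutation and switching in all KO libraries; WT long cells spread widely, with WT replicate 3 highest in switching at 20.99%.

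Class switching followed the same order between the pools. Switched cells made up 4.76, 2.60, 3.27 and 5.76% of long cells in KO libraries and 6.73, 10.5, 20.99 and 9.09% in WT libraries. The groups did not overlap, and WT replicate 3 was far above the rest. The mean was 4.10 ± 1.43% in KO and 11.8 ± 6.30% in WT (SD, n = 4 each), a difference of -7.73 percentage points (exact permutation p = 0.0286, adjusted p = 0.0786). Without WT replicate 3 the difference was -4.67. At 22 or more residues it was 1.21. With KO replicate 1, 2, 3 or 4 left out it was -7.95, -7.23, -7.45 and -8.28, with p = 0.0571 in an exact permutation test over 35 assignments.

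Long cells were less switched than other cells in every KO library, by 2.65 percentage points on average, and averaged 4.46 points more in WT. With each clone counted once KO replicate 4 went the other way, with 8.47% switched in long and 7.31% in other. Counted by cells, the difference over all 8 libraries was 0.907, and -0.950 without WT replicate 3. The change with genotype, -7.12 percentage points, had an exact permutation p of 0.0286 and an adjusted p of 0.0714. It was -3.97 without WT replicate 3 and -7.19, -6.74, -6.73 and -7.80 without KO replicate 1, 2, 3 or 4, each with an exact permutation p of 0.0571. In all, 24 of 597 KO long cells from 19 clones and 43 of 379 WT long cells from 25 clones were switched. The KO cells were 22 IgG1, 1 IgG2b and 1 IgG3, and the WT cells 26 IgG1, 9 IgG2b and 8 IgG3. IgG2c and IgA were not listed for any long cell. Mutation was 0.700% in switched against 0.114% in IgM long cells of KO, and 1.22% against 0.347% in WT (not tested).

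D and J use and charge were also compared between the pools. IGHD1-1 was listed for 37.3, 50, 43.1 and 46.4% of KO and 31.7, 34.9, 33.3 and 35.2% of WT long cells. The mean was 44.2 ± 5.4% in KO and 33.8 ± 1.6% in WT, without overlap (SD, n = 4 each; exact permutation p = 0.0286, adjusted p = 0.0786). Without WT replicate 1, 2, 3 or 4 the difference was 9.74, 10.8, 10.3 and 10.9 percentage points, each with an exact permutation p of 0.0571, and at 22 or more residues it was -11.05. A match of 12 bases to IGHD1-1, which needs no listed D, was found in 59.97% of KO and 61.5% of WT long cells. IGHJ4 was used by 48.4 ± 6.7% of KO and 55.6 ± 3.2% of WT long cells (SD, n = 4 each; exact permutation p = 0.143). The net charge of the CDR3, counting lysine and arginine against aspartate and glutamate, averaged -0.538 ± 0.205 in KO and -0.115 ± 0.144 in WT (SD, n = 4 each; exact permutation p = 0.0286, adjusted p = 0.0786). The charge difference had an exact permutation p of 0.0571 with each clone counted once, where it was -0.276, and without WT replicate 1, 2, 3 or 4, where it was -0.465, -0.460, -0.401 and -0.366. In other cells net charge also split by genotype, from -0.120 to -0.0736 in KO and from -0.0337 to 0.0294 in WT libraries.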

How the data were processed

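The authors deposited 1 contig table per library. Per the file headers, each row gives a read count and a UMI count, as whole-number counts without normalization, with V, D, J and constant gene names and region sequences. Cell Ranger (version not given in the sources used here) and R 4.3.1 are named per the submitters' processing notes, with build mm10. Barcodes with more than 1 heavy or light contig were left out; no doublet caller was run. All 216 gene names matched RefSeq symbols (GRCm38.p6).

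The members and lists were chosen with earlier results of these data known. The germline of an IGHV gene was its most common framework 1 to 3 sequence over clones (at least 20 clones; 77 of 97 genes, 970 of 976 long cells). A V-like start or J-like end is the run matching the gene's consensus (60% of clones). Thinned values are means of 100 seeded draws. KO and WT values were compared by exact permutation (70 assignments, two-sided), and long and other cells by an exact sign-flip permutation of the 8 within-library differences (256 assignments). Each used Benjamini-Hochberg adjustment within its family. V-gene cell counts were tested with edgeR 4.0.16 in R 4.3.3 (library size set to cells, genes with at least 15 cells in total), and DESeq2 1.42.0 as an alternative. Each procedure was tested on simulated data. Named were the 10 IGHV and 6 light V genes most used by long cells, up to 15 and 10 called between long and other cells, up to 10 called between KO and WT, IGHJ and constant genes, D genes with at least 5% of D-assigned long cells, and the 5 largest clones per pool. Same-numbered KO and WT libraries did not deviate together (correlations over 25 IGHV genes -0.207, -0.220, 0.118 and -0.352). Other tools were Biopython 1.88, SciPy 1.17.1, NumPy 2.4.6 and pandas 2.3.3 under Python 3.11.15. Alternatives without IGHV8-8 and with 51 or more bases beyond the V start were chosen after seeing the data.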

Additional observations from a re-analysis of the deposited data

Results flagged for a closer look

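Long cells stood in a different relation to other cells in the 2 genotypes for 2 measures. The difference in switched cells, long minus other, was -2.65 percentage points in KO and 4.46 in WT, a change of -7.12 (exact permutation test of the change, p = 0.0286, adjusted p = 0.0714). The difference in cells of expanded clones was 2.57 percentage points in KO and -16.1 in WT, a change of 18.7 with the same p-values by the exact permutation test. Neither passes after adjustment over 10 values. The change in switching was -3.97 without WT replicate 3. The switching change was -4.96 with each clone counted once and -5.66 with at least 5 heavy UMIs, both with an exact permutation p of 0.0857. The change in expansion was 6.70 without IGHV8-8 cells, a choice made after seeing the data (exact permutation p = 0.229). The part of IGHV8-8 clones in this change was not tested. The gap test, applied to 22 groups of values, marked no library, since no gap to the nearest library reached Dixon's critical value for 4 samples. For switching in WT replicate 3, at 20.99%, the gap was 0.737 of the group's range, so the library lay far above the others without passing this test.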

How the results depend on the processing

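For single genes and minor values, 791 refits under an alternative kept direction and call, 138 lost and 23 gained a call, and 54 turned sign. In what follows causes were not tested. The KO minus WT share was 0.0608 with each clone counted once, 0.114 at 22 residues, 0.219 at 20 to 40 UMIs, 0.0659 without IGHV8-8 and 0.0939 at 51 bases beyond the V start. The switched difference was -6.09 with at least 5 UMIs, -2.37 at 18 residues, 1.21 at 22, -7.01 without IGHV8-8 and -7.14 at 51 bases; mutation was -0.0167 at 22 residues; IGHD1-1 was -11.05 at 22 residues and 8.69 at 51 bases. Expanded cells differed by -6.34 at 18 residues and -5.15 without IGHV8-8, lambda by 0.0186 at 18 and 4.50 at 22, and IGHJ4 by 1.82 at 22, 0.376 without IGHV8-8 and 0.0564 at 51 bases. Long minus other was -0.684 (18) and -2.03 (22) for switching, 0.0853 (51 bases) for mutation, -1.83 (no IGHV8-8) and -9.07 (51 bases) for unmutated cells, and -12.8 (no IGHV8-8) and -13.4 (51 bases) for expanded cells. At 22 residues the genotype change was 1.98 for switching, 0.193 for mutation and -11.8 for unmutated cells. Same-numbered KO and WT libraries did not pair; with the replicate block, differences of 0.704 (share), -7.73 (switching), -0.321 (mutation) and 10.4 (IGHD1-1) have a smallest possible exact permutation p of 0.125, and 1 IGHV gene was called higher and 0 lower in KO by edgeR. Leaving out 1 library gave 0.614 to 0.788 for the share, -9.42 to -4.67 for switching, -0.390 to -0.289 for mutation, 8.50 to 12.7 for IGHD1-1 and 0.130 to 4.75 for expanded cells; long minus other ran from -0.950 to 1.58, -0.0546 to -0.0102 and -8.91 to -4.20 for switching, mutation and expansion. Counts of IGHV genes higher and lower in long cells were 3 and 36 with TMM, 3 and 31 with DESeq2, 13 lower with clones, 12 higher at 18 residues, 2 lower at 22 and 11 lower at 51 bases (3 to 6 and 16 to 21 without 1 library). Those of light genes were 4 and 24 with TMM, 4 and 19 with DESeq2, 2 lower with clones, 12 and 18 at 18 residues and 2 lower at 22 (5 to 7 and 3 to 10). Between KO and WT, IGHV counts were 7 and 10 with no filter, 3 lower with DESeq2, 2 and 2 with clones, 11 higher at 18 residues, and 1 and 0 at 22 (2 to 4 and 2 to 6); light counts were 1 and 1 with clones, 12 and 10 at 18 residues and 0 and 0 at 22 (2 to 4 and 2 to 5). Genes that turned sign, long over other, were IGHV1-81 (-0.57 TMM, -0.49 DESeq2, -1.84 at 22, -0.00042 with all heavy contigs, -0.014 without WT replicate 3, and up to 0.30 without another), IGHV9-3 (0.34 clones, 0.73 at 22, 0.17 all heavy contigs, 0.40 at 51 bases, and 0.024, 0.10, 0.060 and 0.16 without KO replicates 1, 2 and 3 and WT replicate 4), IGHV1-26 (-0.43 TMM, -0.44 DESeq2, -0.075 and -0.013 without KO replicates 2 and 4, up to 0.39, and called at 0.45 at 18 and 2.30 at 22), IGHV1-62-2 (-0.24 TMM, -0.16 DESeq2, -1.05 at 18, -0.55 at 22, -2.91 at 51 bases), IGHV1-64 (0.46 at 18, 1.95 at 22, 0.74 at 51 bases, 0.068, 0.22 and 0.084 without KO replicates 3 and 4 and WT replicate 1, down to -0.28), IGHV1-53 (0.38 at 18) and IGHV1-78 (0.43 at 18). Light genes were IGKV12-44 (-0.22 at 18), IGKV6-15 (-0.25 TMM, -0.26 DESeq2, -0.13 clones, -0.18 at 18, -0.076 at 51 bases) and IGKV3-10 (-0.61 at 51 bases). Fitted values of genes with no long cell at 22 residues were -8.73 for IGHV1-18, -5.32 for IGHV5-12 and -8.61 for IGKV3-12. Between KO and WT, IGHV8-8 was -0.44 at 22, and IGHV1-18, IGHV1-26 and IGKV8-27 were 0.080, -0.021 and -0.51 at 18.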
